A study of Rattus norvegicus with 13 samples.

Results

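The collagen chain genes are the genes that encode the alpha chains of collagen, and they were taken as every row named Col, a number, the letter a and a number with nothing more. The rule found 44 genes in each of the 3 deposited tables, of 25600 names listed at 2 months and 38600 listed at 6 and 8 months, and all 44 match a rat symbol in RefSeq. They comprise 11 fibrillar chains, 6 basement membrane chains and 27 chains of other types, and the label fits the names, since no other kind of row met the rule. The data are expected counts of bulk RNA from rat hearts, with one table for each month. The sonogenetic hearts (ST) were given an adeno-associated virus, AAV2/9, that carries MscL-G22S, a variant of a bacterial channel opened by membrane tension, joined to the fluorescent protein mCherry under the cTnT promoter, which is active in heart muscle cells. The WT hearts are labelled as having had no treatment, and no control virus is named for them. There were 3 ST hearts at 8 months, 3 ST and 3 WT hearts at 6 months, and 2 ST and 2 WT hearts at 2 months. No WT heart of 8 months was measured here. The labels do not say from which event the months are counted or whether ultrasound was applied.

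Collagens are the main structural proteins of the extracellular matrix, and each molecule winds its alpha chains into a triple helix in the endoplasmic reticulum before it is secreted. In the heart, fibroblasts make the fibrillar types I and III, which bundle heart muscle cells and carry tension, while endothelial cells, pericytes and muscle cells stand on a basement membrane whose network is type IV. Types that bind to fibrils, such as XII and XIV, short-chain types such as VIII, and types at the border of basement membranes, such as XV and XVIII, link these layers.

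Several of the genes described here lie side by side, head to head, in the genome. RefSeq places the starts of Col4a1 and Col4a2, which encode the general type IV chains, 76 bases apart on rat assembly GRCr8, with 412 bases between those of Col4a3 and Col4a4 and 1414 between those of Col4a5 and Col4a6. The stretch between the 2 starts of the first pair is shown because both of its genes moved together in the values below. The windows of 250 bases before the RefSeq start of Col1a2 (fibrillar), Col4a3 (basement membrane) and Col8a1 (short chain) are shown as examples of members that moved in opposite directions. All 4 sequences are RefSeq sequences of build GRCr8, printed 5′ to 3′ on the plus strand, on which Col4a1, Col1a2, Col4a3 and Col8a1 are read. Their positions are chr16:84885521-84885596, chr4:33518307-33518556, chr9:91323740-91323989 and chr11:56246532-56246781. Capitals mark exact matches, searched on both strands, to the CCAAT box motif CCAAT, the GC box motif GGGCGG and the TATA box motif TATAAA, with a match on the other strand shown as its reverse complement. The motifs do not overlap in these windows.
Col4a1-Col4a2 interval: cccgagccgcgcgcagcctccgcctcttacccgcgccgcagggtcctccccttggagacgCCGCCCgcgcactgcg
Col1a2: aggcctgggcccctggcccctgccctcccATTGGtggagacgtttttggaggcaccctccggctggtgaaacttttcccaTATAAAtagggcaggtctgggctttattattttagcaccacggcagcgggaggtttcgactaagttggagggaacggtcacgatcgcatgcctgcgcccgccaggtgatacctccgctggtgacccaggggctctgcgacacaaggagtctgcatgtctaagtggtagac
Col4a3: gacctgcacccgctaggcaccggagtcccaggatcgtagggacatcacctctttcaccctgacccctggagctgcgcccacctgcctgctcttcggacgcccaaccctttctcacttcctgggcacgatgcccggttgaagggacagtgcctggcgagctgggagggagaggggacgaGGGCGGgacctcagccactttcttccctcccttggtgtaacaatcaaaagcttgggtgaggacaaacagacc
Col8a1: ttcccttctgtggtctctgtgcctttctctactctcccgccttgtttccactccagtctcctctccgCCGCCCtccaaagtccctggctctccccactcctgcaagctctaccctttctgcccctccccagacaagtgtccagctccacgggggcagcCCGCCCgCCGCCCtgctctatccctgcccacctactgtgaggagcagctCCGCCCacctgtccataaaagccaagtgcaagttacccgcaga
The interval holds 1 match to GGGCGG, the window of Col1a2 holds 1 match to CCAAT and 1 to TATAAA, that of Col4a3 holds 1 to GGGCGG and that of Col8a1 holds 4 to GGGCGG. RefSeq windows were matched for 35 of the 44 genes. CCAAT was found in 11 of these 35 and in 34.02% of all 33469 promoter windows of the same length, GGGCGG in 18 and in 30.47%, and TATAAA in 4 and in 12.93%. These matches describe letters in the windows and nothing more.

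The libraries held 4.70 M to 5.57 M counts in ST hearts of 8 months, 6.72 M to 8.49 M in ST hearts of 6 months and 7.02 M to 7.48 M in WT hearts of 6 months. They held 8.52 M to 11.3 M in ST hearts of 2 months and 6.54 M to 8.70 M in WT hearts of 2 months. Transgene RNA was counted in all 8 ST libraries, at 116 to 180.0 CPM (counts scaled to a library total of 1 M) at 8 months, 90.4 to 209 CPM at 6 months and 11.03 to 11.24 CPM at 2 months, and had 0 counts in all 5 WT libraries. Genes that mark heart muscle had summed levels, in CPM scaled by TMM as for the levels below, of 105830 to 107295 CPM in ST hearts of 8 months. At 6 months they had 89927 to 95904 CPM in ST and 97540 to 104809 CPM in WT hearts, and these 3 groups did not overlap. The lower sum in ST hearts of 6 months did not hold marker by marker. Of the 8 tested there against WT, 3 rose and 1 fell, beside 40.0% of all genes tested called. Their median log2 fold change was 0.11, with 6 of the 8 above 0. At 2 months, with 7 markers listed rather than 8, the heart muscle genes had 56083 to 66586.5 CPM in ST and 63945 to 67536 CPM in WT hearts. None of those listed was at 0, and their part in the collagen results was not tested. Replicates differed beyond counting noise in every group (chi-square per gene of 1.93 to 12.1 between replicates), and ST replicate 2 and WT replicate 1 of 6 months stood farthest from the others of their groups. Without that ST library 18 collagen genes were called at 6 months, all 16 of the full comparison among them, and without that WT library the same 16 were. Levels below are CPM scaled by TMM, over the 4 libraries of 2 months or over the 9 libraries of 6 and 8 months. Levels were not compared between those sets, whose tables list different names. A gene rose or fell where the adjusted p of edgeR's quasi-likelihood test was under 0.05, fold changes are log2 values of the first group over the second, and ± beside a fold change is its standard error.

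The collagen chain genes held 0.216% ± 0.0021 of all counts in ST hearts of 8 months, 0.200% ± 0.0099 in ST hearts of 6 months and 0.229% ± 0.0083 in WT hearts of 6 months (mean ± SD, n = 3 each). At 2 months they held 0.316% ± 0.0044 in ST and 0.341% ± 0.043 in WT hearts (SD, n = 2 each). At 6 and 8 months the parts of this total differed in opposite directions between groups. Fibrillar chains held 0.0713% ± 0.0019 in ST hearts of 8 months, 0.0431% ± 0.0027 in ST hearts of 6 months and 0.0816% ± 0.0052 in WT hearts of 6 months. Basement membrane chains held 0.0774% ± 0.0031, 0.0904% ± 0.0098 and 0.0674% ± 0.0051 in the same 3 groups, and were thus highest where the fibrillar chains were lowest. The ratio of summed fibrillar to summed basement membrane counts, which is free of scaling between libraries, was 0.922 ± 0.049 in ST hearts of 8 months, 0.480 ± 0.050 in ST hearts of 6 months and 1.21 ± 0.11 in WT hearts of 6 months. The other chains held 0.0672% ± 0.0024, 0.0665% ± 0.0023 and 0.0802% ± 0.00034, with the ST hearts of both months below every WT heart of 6 months.

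**Figure D1:**
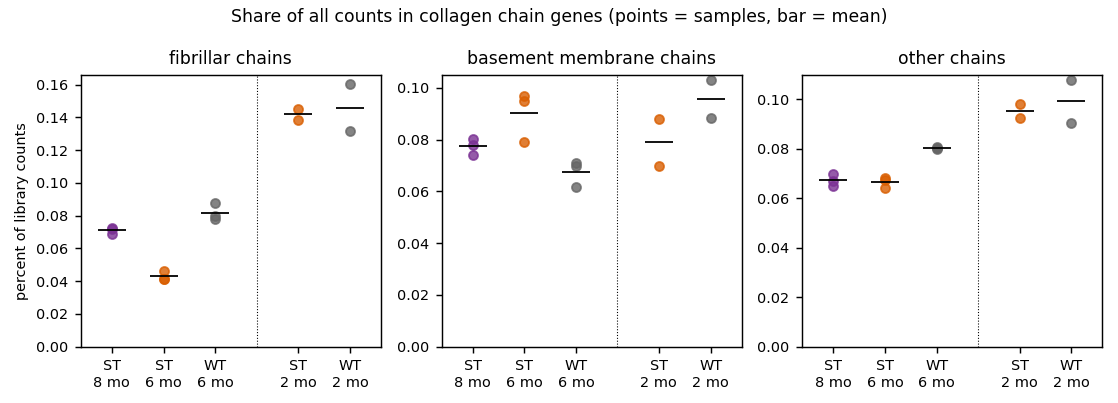
Percent of all counts of a library held by fibrillar, basement membrane and other collagen chain genes (vertical axes, from 0). Points are samples and bars are means of ST 8 months, ST 6 months, WT 6 months, ST 2 months and WT 2 months; the fibrillar share of ST hearts of 6 months (0.0414 to 0.0462%) lies below all others of 6 and 8 months.

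At 6 months the ST hearts had less RNA of the fibrillar collagens, more of the general type IV chains Col4a1 and Col4a2, and more of Col8a1 and Col12a1. Of 44 genes, 28 passed the filter on low counts, and of these 4 rose and 12 fell, beside 40.0% of all 13253 genes tested called in either direction. Fibrillar chains accounted for 8 of the 12 that fell: of 9 tested, 8 fell and 0 rose, with a median log2 fold change of -0.86, whereas 20.1% of all genes tested fell and their median was -0.0017. All 8 had ST values that did not overlap those of WT, as had 26.3% of all genes in that direction. In bulk RNA, fewer cells of a type and less RNA in each cell cannot be told apart.

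Col1a1 encodes the major chain of type I collagen, the stiff fibre of the heart wall, and its level was 51.7, 62.4 and 46.2 CPM in the 3 ST hearts of 6 months, against 109.9, 121 and 129 CPM in the WT hearts. The highest ST heart lay well below the lowest WT heart. Col1a1 fell, with a log2 fold change of -1.16 ± 0.11, adjusted p = 6.06e-06. Its partner chain Col1a2 had 98.0, 90.4 and 89.3 CPM in ST, against 136, 149 and 165 CPM in WT hearts. Col1a2 fell too, with -0.70 ± 0.083, adjusted p = 5.26e-05, and again the groups were apart. The count ratio of Col1a1 to Col1a2 within a library, not corrected for length, was 0.578 ± 0.097 in ST and 0.800 ± 0.018 in WT hearts of 6 months (SD, n = 3 each), and the 3 ST ratios, at most 0.690, were all below the WT ratios, at least 0.780.

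Col3a1, the single chain of the finer and more compliant type III fibrils, had 170.0, 131 and 149.7 CPM in ST hearts, against 305, 297 and 346 CPM in WT hearts of 6 months. No ST heart came near the lowest WT heart, and Col3a1 fell, with -1.07 ± 0.10, adjusted p = 5.32e-06. Col27a1, a fibril-forming chain best known from cartilage, had 10.9, 10.6 and 10.5 CPM in ST, against 21.8, 19.96 and 22.7 CPM in WT hearts. The 3 ST hearts were nearly alike, and Col27a1 fell, with -1.01 ± 0.11, adjusted p = 2.54e-05. Col11a2, a chain of cartilage fibrils, had 3.70, 4.79 and 4.05 CPM in ST, against 7.65, 8.76 and 6.81 CPM in WT hearts and fell, with -0.87 ± 0.19, adjusted p = 0.00309. Col24a1, a minor fibrillar chain known from bone and cornea, had 4.47, 2.58 and 4.05 CPM in ST, against 7.51, 6.18 and 6.27 CPM in WT hearts and fell, with -0.86 ± 0.22, adjusted p = 0.00935. Both of these low-level genes kept all ST values under all WT values.

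Type V collagen seeds type I fibrils and limits their width. Its chains Col5a1, Col5a2 and Col5a3 all had negative log2 fold changes at 6 months, and that of Col5a2 did not pass the test. No difference between the chains was tested. Col5a1 had 59.6, 59.6 and 48.9 CPM in ST, against 76.2, 74.6 and 78.3 CPM in WT hearts of 6 months, and fell, with -0.44 ± 0.087, adjusted p = 0.00179. Col5a3 had 17.1, 21.2 and 18.7 CPM in ST, against 23.5, 23.1 and 25.8 CPM in WT hearts and fell, with -0.33 ± 0.11, adjusted p = 0.0311, but this call was lost with DESeq2 (adjusted p = 0.109) and when ST replicate 1 (0.115), ST replicate 3 (0.0891), WT replicate 2 (0.0535) or WT replicate 3 (0.106) was left out. Col5a2 had 62.0, 50.6 and 59.5 CPM in ST, against 57.1, 66.3 and 67.5 CPM in WT hearts. Here the groups overlapped, and the log2 fold change of -0.15 ± 0.10, adjusted p = 0.249 did not pass the test. Col2a1 and Col11a1, the other fibrillar chains, had at most 4 counts in any library of 6 or 8 months and were not tested.

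The basement membrane chains split. Col4a1, 1 of the 2 chains of the type IV network found in nearly all basement membranes, had 513, 402 and 508 CPM in ST hearts, against 313, 256 and 305 CPM in WT hearts of 6 months. Col4a2, its partner across the shared start region shown above, had 424, 366 and 445 CPM in ST, against 281, 263 and 291 CPM in WT hearts. Every ST heart was above every WT heart for both genes. Col4a1 rose, with 0.71 ± 0.10, adjusted p = 0.000218, and Col4a2 rose, with 0.57 ± 0.081, adjusted p = 0.000189. The count ratio of Col4a1 to Col4a2 was 1.15 ± 0.058 in ST and 1.05 ± 0.070 in WT hearts (SD, n = 3 each), and the groups' ratios overlapped.

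Col4a3 belongs to a second type IV network, with Col4a4 and Col4a5, best known from the kidney's filter. It had 16.3, 17.4 and 17.9 CPM in ST hearts, against 46.6, 38.5 and 38.7 CPM in WT hearts of 6 months. The lowest WT heart lay far above the highest ST heart, and Col4a3 fell, with -1.25 ± 0.10, adjusted p = 2.70e-06, the largest fall of any collagen chain gene tested at 6 months. Its partners did not pass the test: Col4a5 had 27.9, 36.0 and 35.8 CPM in ST, against 36.9, 32.7 and 36.3 CPM in WT hearts, with -0.076 ± 0.11, adjusted p = 0.611. Col4a4, next to Col4a3 in the genome, had 1.70, 2.21 and 1.96 CPM in ST, against 2.59, 1.93 and 1.87 CPM in WT hearts, with -0.10 ± 0.28, adjusted p = 0.805. The low counts of Col4a4 leave a wide error. Col4a6 had 0.308, 1.47 and 1.05 CPM in ST and 1.09, 0.773 and 1.07 CPM in WT hearts and was below the filter.

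Of 14 other chains tested at 6 months, 2 rose and 3 fell, which is 35.7%, beside 40.0% of all genes tested called. Col12a1, which coats the fibrils of tendon and other dense tissue, had 11.3, 8.598 and 8.50 CPM in ST, against 3.55, 4.77 and 4.27 CPM in WT hearts. Col8a1, a short chain that forms sheets in vessel walls, had 23.3, 17.1 and 30.2 CPM in ST, against 10.7, 10.8 and 11.1 CPM in WT hearts. Both had ST values wholly above WT values, with a wide spread between ST hearts for Col8a1 and nearly equal WT hearts. Col12a1 rose, with 1.16 ± 0.19, adjusted p = 0.000542, and Col8a1 rose, with 1.12 ± 0.19, adjusted p = 0.000591. Col8a2, the partner chain of Col8a1, had 4.47, 5.04 and 3.79 CPM in ST, against 3.14, 3.74 and 3.20 CPM in WT hearts, without passing the test (0.40 ± 0.22, adjusted p = 0.160).

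Col15a1, a chain at the border of the basement membranes of muscle and capillaries, had 85.7, 102 and 94.4 CPM in ST, against 150.2, 149.9 and 167 CPM in WT hearts of 6 months. It fell, with -0.72 ± 0.080, adjusted p = 2.86e-05, while its relative Col18a1, the source of endostatin, did not pass the test at 25.7, 18.5 and 26.9 CPM in ST, against 19.9, 20.7 and 20.9 CPM in WT hearts (0.21 ± 0.14, adjusted p = 0.251). Type VI collagen forms beaded filaments around muscle fibres, and Col6a1 had 151, 155 and 149.8 CPM in ST, against 189, 179.9 and 178 CPM in WT hearts. Col6a1 fell by a small amount with a tight spread (-0.26 ± 0.062, adjusted p = 0.00657). Col6a2 had 152, 149 and 142 CPM in ST, against 162, 146 and 149 CPM in WT hearts (-0.039 ± 0.067, adjusted p = 0.674), and Col6a3 had 122, 127 and 105 CPM in ST, against 108, 110.2 and 114 CPM in WT hearts (0.091 ± 0.080, adjusted p = 0.392). Neither passed the test. The count ratio of Col6a1 to Col6a2 was 1.03 ± 0.031 in ST, against 1.20 ± 0.033 in WT hearts (SD, n = 3 each), without overlap. Col6a6, a long chain of the same family, had 5.55, 13.5 and 10.3 CPM in ST, against 17.6, 22.7 and 17.7 CPM in WT hearts and fell, with -0.95 ± 0.23, adjusted p = 0.00586.

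The remaining 5 of the other chains tested, Col7a1, Col13a1, Col14a1, Col16a1 and Col20a1, did not pass the test at 6 months, with log2 fold changes between -0.54 and 0.26. Col14a1, which like Col12a1 binds to fibrils, had 86.3, 89.3 and 71.5 CPM in ST, against 77.4, 93.0 and 87.7 CPM in WT hearts, and the groups overlapped. Without normalization beyond the library total, the median of all genes at 6 months moved by -0.114 and the split of calls over all genes became 1734 higher and 3708 lower, beside 2643 higher and 2662 lower with TMM. The 16 collagen calls of 6 months remained with that scaling, in the same directions, and Col5a2 was added to those that fell.

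**Figure D2:**
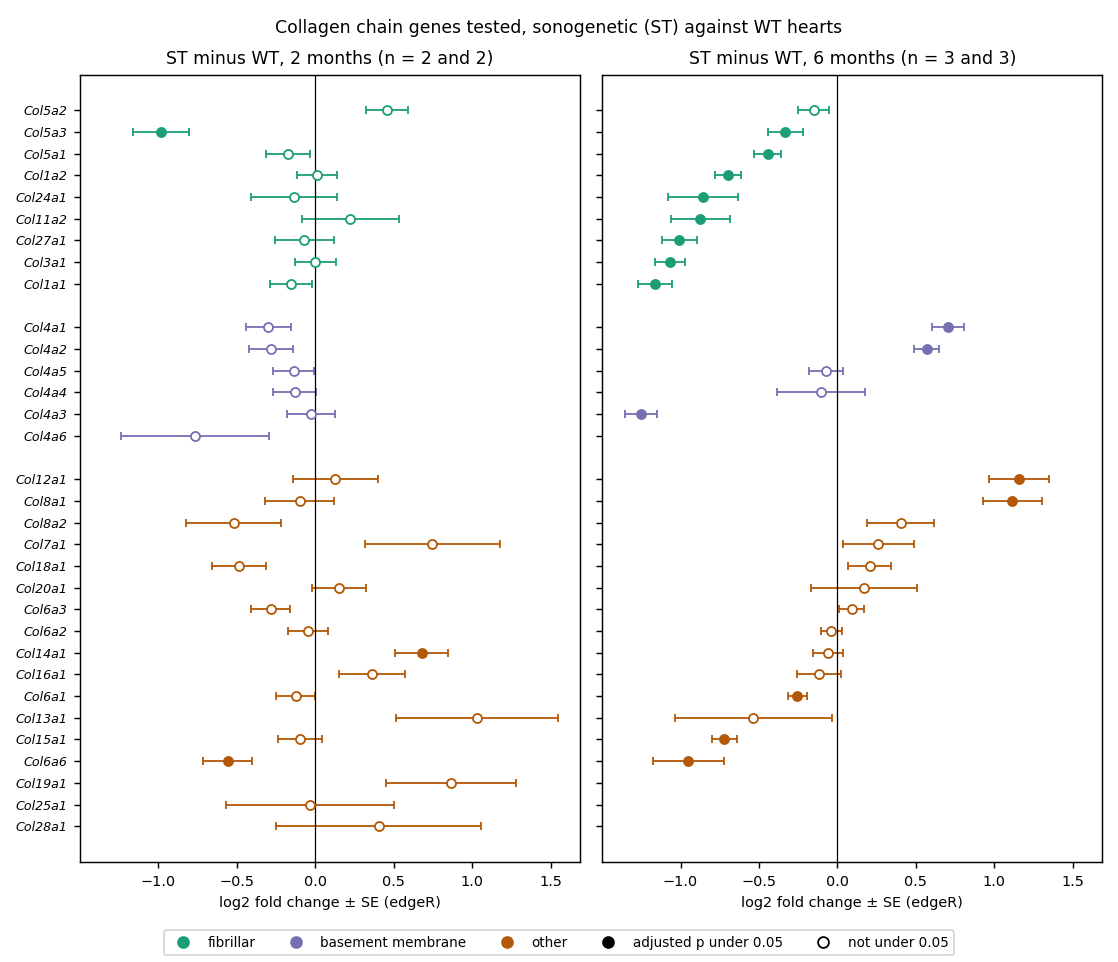
Log2 fold change of ST over WT hearts at 2 months (left, 2 hearts a group) and 6 months (right, 3 hearts a group) for each collagen chain gene tested, by type; points are fold changes, bars ± SE, and filled points passed an adjusted p of 0.05. The fibrillar genes spread about 0 at 2 months, apart from Col5a3, and lie left of 0 at 6 months.

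Markers of other cell types moved at 6 months as well, when 40.0% of all genes tested were called. Among 12 fibroblast markers that are not collagens, 6 rose and 2 fell, and their summed level was 3326 to 3806 CPM in ST, against 2855 to 3095 CPM in WT hearts, with no marker at 0. One of the fibroblast markers that fell was Pdgfra (log2 fold change -0.45, adjusted p = 0.00525). Endothelial markers summed to 1483 to 1688 CPM in ST, against 1209 to 1501 CPM in WT hearts, with 6 of 12 risen and 2 fallen. Smooth muscle and pericyte markers summed to 754 to 931 CPM in ST, against 764 to 823 CPM in WT hearts, with 6 of 11 risen and 1 fallen. Schwann cell markers summed to 93.1 to 129.9 CPM in ST, against 143 to 165 CPM in WT hearts, with 4 of 7 tested fallen. Of 3 mesothelial markers tested, from cells that line the heart's surface, Msln, with 0 to 12 counts in ST and 22 to 68 in WT libraries (adjusted p = 0.00192), and Upk3b, with 0 to 6 counts in ST and 13 to 36 in WT libraries (adjusted p = 0.00282), fell, and Wt1 rose (log2 fold change 0.89, adjusted p = 6.84e-05). The 8 on the list summed to 29.7 to 33.3 CPM in ST, against 24.3 to 37.2 CPM in WT hearts, with up to 6 of the 8 at 0 in an ST library and none in a WT library. The part of these markers in the collagen results was not tested.

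At 2 months few collagen chain genes differed between ST and WT hearts. Of 32 tested, 1 rose and 2 fell, beside 4.80% of all 12121 genes tested called (2.70% higher and 2.10% lower), and their median log2 fold change was -0.085, against -0.00044 over all genes tested. The groups did not overlap for 6 collagen genes that were higher and 10 that were lower in ST hearts, beside 48.9% of all genes without overlap (24.8% higher and 24.1% lower). Col5a3, a type V chain, had 10.04 and 11.9 CPM in the 2 ST hearts, against 22.6 and 20.4 CPM in the WT hearts. It fell, with -0.98 ± 0.18, adjusted p = 0.00322, and kept that call with every library left out in turn and with every other setting tried. Col14a1 had 181 and 129 CPM in ST, against 112 and 82.1 CPM in WT hearts. It rose, with 0.68 ± 0.17, adjusted p = 0.0277, but the call was lost without ST replicate 1 (adjusted p = 0.0844) or WT replicate 2 (0.335). Col6a6 had 21.9 and 22.9 CPM in ST, against 30.3 and 36.0 CPM in WT hearts. It fell, with -0.56 ± 0.15, adjusted p = 0.0471, and the call was lost with DESeq2 (adjusted p = 0.165), limma-voom (0.0531), the fit over all groups (0.0928), and without WT replicate 1 (0.112) or WT replicate 2 (0.413). Of 3 mesothelial markers tested at 2 months, 2 rose in ST hearts, both at low counts: Msln, with 57 and 11 counts in ST and 1 in each WT library (adjusted p = 0.00414), and Upk3b, with 16 and 11 counts in ST and 0 and 1 in WT libraries (adjusted p = 0.0131). The call of Upk3b was lost with DESeq2 (adjusted p = 0.190). The list summed to 18.6 to 23.1 CPM in ST, against 10.6 to 10.97 CPM in WT hearts, with 0 of its 7 listed markers at 0 in ST libraries and up to 3 in a WT library. Of 12 fibroblast markers tested 0 passed the test with edgeR, DESeq2 or limma-voom, 3 of them with an unadjusted p under 0.05, and they summed to 2398 to 2527 CPM in ST, against 2255 to 2546 CPM in WT hearts. Their median log2 fold change was 0.24, with 10 of the 12 above 0. Without overlap, 6 of them were higher and 0 lower in ST hearts, beside 24.8% and 24.1% of all genes tested. The part of these markers in the collagen values of 2 months was not tested.

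The main fibrillar genes had close values in both groups of 2 months. Col1a1 had 282 and 271 CPM in ST, against 341 and 275 CPM in WT hearts (-0.15 ± 0.13, adjusted p = 0.595). Col1a2 had 325 and 305 CPM in ST, against 331 and 293 CPM in WT hearts (0.013 ± 0.13, adjusted p = 0.973). Col3a1 had 662 and 629 CPM in ST, against 681 and 609 CPM in WT hearts, with an adjusted p of 0.998. Col1a1, Col1a2 and Col3a1 thus did not pass the test at 2 months, and their groups overlapped. Col5a1 had 76.1 and 81.9 CPM in ST, against 98.6 and 79.1 CPM in WT hearts (-0.17 ± 0.14, adjusted p = 0.550). Col5a2 had 77.8 and 67.6 CPM in ST, against 54.2 and 52.0 CPM in WT hearts, which did not overlap, but its log2 fold change of 0.45 ± 0.13, adjusted p = 0.0627 missed the threshold. It passed the test with no filter and in the fit over all groups.

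Col4a1 had 339.7 and 444 CPM in ST, against 510.2 and 453 CPM in WT hearts of 2 months (-0.30 ± 0.14, adjusted p = 0.284). Col4a2 had 243 and 316 CPM in ST, against 356 and 324 CPM in WT hearts (-0.28 ± 0.14, adjusted p = 0.299). For both, the ST hearts lay below the WT hearts, the other way round from 6 months, without passing the test. The other 4 basement membrane genes, Col4a3 to Col4a6, did not pass the test either, with log2 fold changes of -0.77 to -0.027. Col4a3 had 23.5 and 24.0 CPM in ST, against 23.9 and 24.6 CPM in WT hearts, so that its 4 hearts of 2 months were nearly alike. Col8a1 had 14.6 and 9.76 CPM in ST and 14.9 and 11.1 CPM in WT hearts, which overlapped (-0.10 ± 0.22, adjusted p = 0.855). Col15a1, Col18a1, Col6a1, Col6a2 and Col6a3 gave -0.10, -0.49, -0.13, -0.048 and -0.28, without passing the test. With no filter, Col18a1 passed it.

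The difference between the ST effect at 6 months and that at 2 months was tested itself, as an interaction over all 10 ST and WT libraries of these months. Of 32 collagen chain genes tested, 5 had a higher and 9 a lower log2 fold change at 6 months, beside 22.2% of all 12658 genes tested (1294, or 10.2%, higher and 1517 lower). Lower at 6 months were the fibrillar genes Col1a1 (-1.02 ± 0.17, adjusted p = 0.000599), Col1a2 (-0.72 ± 0.14, adjusted p = 0.00175), Col3a1 (-1.08 ± 0.15, adjusted p = 0.000125), Col5a2 (-0.62 ± 0.16, adjusted p = 0.0105), Col11a2 (-1.10 ± 0.33, adjusted p = 0.0254) and Col27a1 (-0.94 ± 0.20, adjusted p = 0.00352). The same held for the basement membrane gene Col4a3 (-1.24 ± 0.17, adjusted p = 8.36e-05) and for Col14a1 (-0.75 ± 0.21, adjusted p = 0.0195) and Col15a1 (-0.63 ± 0.16, adjusted p = 0.00920). Higher at 6 months were Col4a1 (0.99 ± 0.18, adjusted p = 0.00117), Col4a2 (0.84 ± 0.16, adjusted p = 0.00147), Col8a1 (1.20 ± 0.32, adjusted p = 0.0129), Col18a1 (0.69 ± 0.23, adjusted p = 0.0386) and the fibrillar gene Col5a3 (0.64 ± 0.19, adjusted p = 0.0245). Col5a3 thus differed in the opposite direction to the other fibrillar genes, with log2 fold changes of ST over WT of -0.33 at 6 months and -0.98 at 2 months. The calls of Col1a1, Col1a2, Col3a1, Col5a2, Col27a1, Col4a1, Col4a2 and Col4a3 held in each of 17 other settings. That of Col8a1 was lost without WT replicate 1 of 2 months (adjusted p = 0.122), and that of Col15a1 without WT replicate 2 of 2 months (0.0556). That of Col14a1 was lost without ST replicate 1 (adjusted p = 0.127) or WT replicate 2 (0.108) of 2 months or WT replicate 2 of 6 months (0.0518). That of Col5a3 was lost with DESeq2 (adjusted p = 0.0660) and without ST replicate 1 (0.112) or WT replicate 1 (0.125) of 2 months or WT replicate 2 of 6 months (0.0533). That of Col11a2 was lost with DESeq2 (adjusted p = 0.0871) and without ST or WT replicate 2 of 2 months, or ST replicate 1 or 3 or WT replicate 2 of 6 months (0.0526 to 0.0982). That of Col18a1 was lost with scaling by library total (adjusted p = 0.0649) and without ST or WT replicate 1 of 2 months, ST replicate 1 or 3 of 6 months, or any WT library of 6 months (0.0582 to 0.274). Month, table and any difference in preparation between the tables cannot be told apart in this test, although each ST effect is taken within its own table.

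In ST hearts of 8 months the fibrillar genes were higher again than in ST hearts of 6 months, and the general type IV genes were lower. Of 28 collagen chain genes tested, 8 rose and 7 fell, beside 39.5% of all 12931 genes tested called. Fibrillar chains rose in 6 of 9 tested and fell in 1, with a median log2 fold change of 0.61, whereas 18.8% of all genes tested rose and their median was 0.015. The values of 10 collagen genes were higher and those of 5 lower in every ST heart of 8 months than in all ST hearts of 6 months, beside 50.9% of all genes tested without overlap (25.5% higher and 25.4% lower). Month, table and any difference in sequencing run cannot be told apart in this comparison, and the sample titles name no run. The comparison of ST hearts of 8 months with WT hearts of 6 months below uses the same ST libraries, and that of ST with WT hearts of 6 months uses the same ST libraries of 6 months. The values are therefore set side by side, and no similarity between these comparisons is counted as a result.

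Col3a1 had 328, 312 and 311 CPM in ST hearts of 8 months. Every one was above every ST heart of 6 months, and Col3a1 rose against these, with 1.07 ± 0.082, adjusted p = 6.07e-07. Set against WT hearts of 6 months it gave 0.016 ± 0.070, adjusted p = 0.881, without passing the test and with overlapping values. Col1a1 had 94.1, 117 and 98.7 CPM in ST hearts of 8 months. It rose against ST hearts of 6 months, with 0.94 ± 0.11, adjusted p = 2.95e-05, and gave -0.21 ± 0.087, adjusted p = 0.0793 against WT hearts of 6 months, which did not pass the test. Against these WT hearts Col1a1 did pass with scaling by library total, with no filter and with a replicate block. It passed too without WT replicate 1 of 6 months or without ST replicate 2 of 8 months. Col1a2 had 128, 124 and 127 CPM in ST hearts of 8 months. It rose against ST hearts of 6 months, with 0.44 ± 0.065, adjusted p = 0.000167, and fell against WT hearts of 6 months, with -0.24 ± 0.076, adjusted p = 0.0210. That fall was lost when any of the 3 ST libraries of 8 months (adjusted p = 0.0556, 0.0790 and 0.0634 for replicates 1, 2 and 3) or WT replicate 3 (0.125) was left out.

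Col27a1 had 25.4, 22.4 and 20.3 CPM in ST hearts of 8 months, above all ST hearts of 6 months, and rose against them, with 1.08 ± 0.13, adjusted p = 2.59e-05. Col11a2 had 9.30, 8.27 and 7.80 CPM and rose, with 0.99 ± 0.19, adjusted p = 0.00131. Col5a3 had 29.8, 25.2 and 26.1 CPM and rose, with 0.49 ± 0.12, adjusted p = 0.00500. Against WT hearts of 6 months, Col27a1 gave 0.085 ± 0.11, adjusted p = 0.603, Col11a2 gave 0.13 ± 0.17, adjusted p = 0.587 and Col5a3 gave 0.17 ± 0.11, adjusted p = 0.222, and none of these 3 genes passed the test. Col24a1 had 6.13, 5.08 and 5.62 CPM in ST hearts of 8 months and did not pass the test against either ST hearts (0.61 ± 0.24, adjusted p = 0.0650) or WT hearts (-0.24 ± 0.19, adjusted p = 0.372) of 6 months. Its values of 8 months were all above those of ST hearts of 6 months. Against these ST hearts it did pass with scaling by library total, a filter of 5 CPM, a replicate block and the fit over all groups.

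Col5a2 departed from the other fibrillar genes. It had 42.5, 42.9 and 45.9 CPM in ST hearts of 8 months, below every heart of 6 months. Col5a2 fell against ST hearts of 6 months, with -0.39 ± 0.090, adjusted p = 0.00420, and against WT hearts of 6 months, with -0.53 ± 0.090, adjusted p = 0.000279. Col5a1 had 54.3, 63.7 and 55.5 CPM in ST hearts of 8 months. Its level did not pass the test against ST hearts of 6 months (0.043 ± 0.10, adjusted p = 0.760) and fell against WT hearts of 6 months, with -0.39 ± 0.080, adjusted p = 0.00145. The count ratio of Col5a1 to Col5a2 was 1.32 ± 0.14 in ST hearts of 8 months, 0.987 ± 0.18 in ST hearts of 6 months and 1.21 ± 0.11 in WT hearts of 6 months (SD, n = 3 each).

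**Figure D3:**
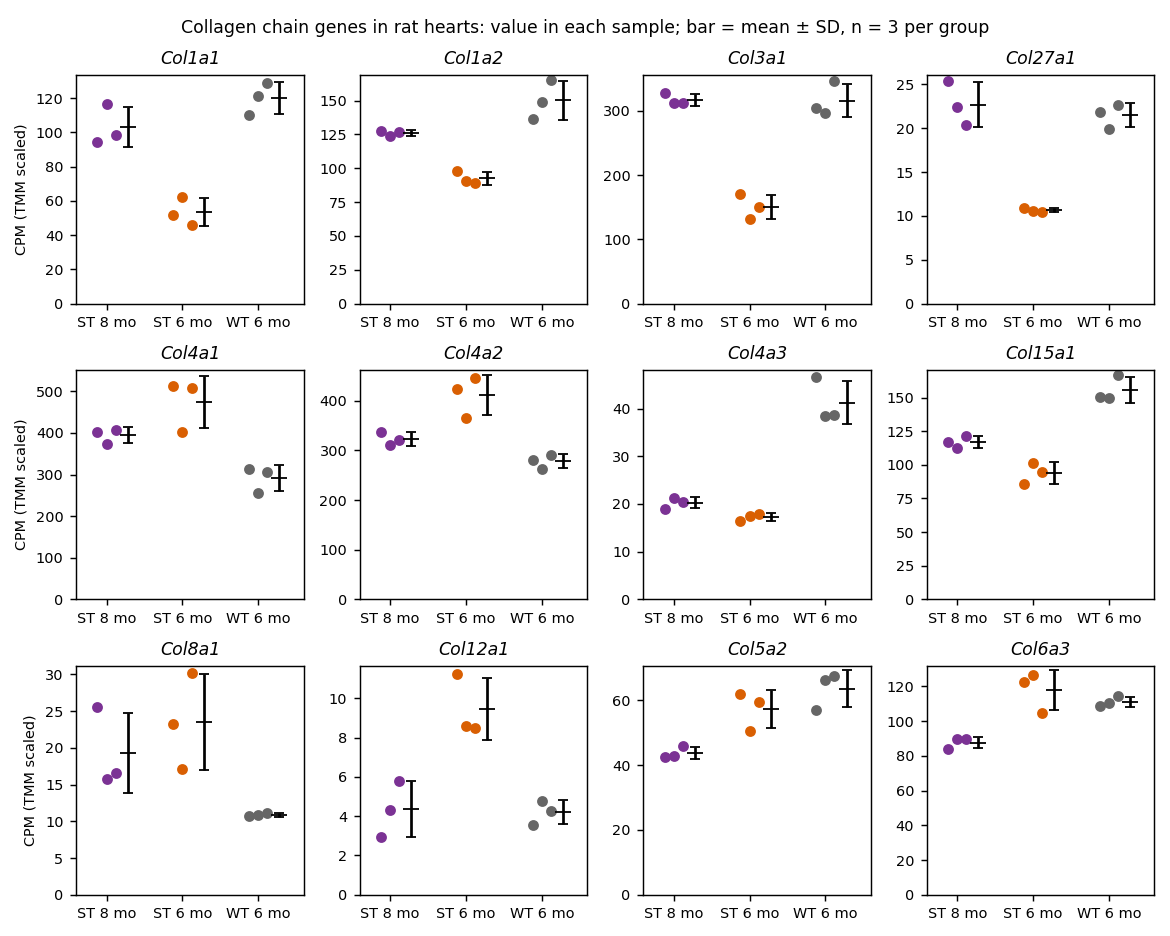
CPM, scaled by TMM over 9 libraries, of 12 collagen chain genes in each heart (vertical axes, from 0); points are ST 8 months, ST 6 months and WT 6 months, bars are mean ± SD of 3. Col1a1, Col1a2, Col3a1 and Col27a1 are lowest in ST hearts of 6 months, while Col4a1, Col4a2 and Col12a1 are highest there and Col4a3 is low in ST hearts of both months.

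Col4a1 had 402, 372 and 408 CPM and Col4a2 had 338, 310.1 and 321 CPM in ST hearts of 8 months. For Col4a2 every value lay between those of the ST and the WT hearts of 6 months. Col4a1 fell against ST hearts of 6 months, with -0.27 ± 0.084, adjusted p = 0.0213, and rose against WT hearts of 6 months, with 0.45 ± 0.076, adjusted p = 0.000265. The fall of Col4a1 was lost with scaling by library total (adjusted p = 0.0680) and without ST replicate 1 (0.0904) or 3 (0.0763) of 6 months or ST replicate 2 of 8 months (0.103). Col4a2 fell against ST hearts of 6 months, with -0.36 ± 0.073, adjusted p = 0.00200, and rose against WT hearts of 6 months, with 0.23 ± 0.065, adjusted p = 0.0133. Its rise was lost with scaling by library total (adjusted p = 0.0567), without ST replicate 1 of 8 months (0.0693) or without WT replicate 2 of 6 months (0.0708). Col4a3 had 19.0, 21.2 and 20.5 CPM in ST hearts of 8 months, below every WT heart of 6 months, and fell against them, with -1.01 ± 0.11, adjusted p = 2.70e-06. Against ST hearts of 6 months it gave 0.23 ± 0.11, adjusted p = 0.121 and did not pass the test. Col4a5 had 37.2, 29.0 and 34.1 CPM, with -0.0087 ± 0.12, adjusted p = 0.961 against ST and -0.069 ± 0.10, adjusted p = 0.641 against WT hearts of 6 months, neither past the threshold. Col4a4 had 1.27, 1.69 and 0.907 CPM in ST hearts of 8 months and did not pass the test against ST (-0.61 ± 0.35, adjusted p = 0.188) or WT hearts (-0.71 ± 0.36, adjusted p = 0.147) of 6 months.

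Among the other chains, Col12a1 had 2.96, 4.32 and 5.80 CPM in ST hearts of 8 months and fell against ST hearts of 6 months, with -1.09 ± 0.23, adjusted p = 0.00235. Against WT hearts of 6 months it gave 0.084 ± 0.26, adjusted p = 0.833 and did not pass the test. Col8a1 had 25.6, 15.8 and 16.5 CPM in ST hearts of 8 months, overlapped ST hearts of 6 months (-0.30 ± 0.21, adjusted p = 0.281, not past the threshold) and rose against WT hearts of 6 months, with 0.83 ± 0.17, adjusted p = 0.00111. Thus Col8a1 was above WT hearts of 6 months in ST hearts of both months, whereas Col12a1 passed the test against them at 6 months only.

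Col15a1 had 117, 112 and 122 CPM in ST hearts of 8 months, between the groups of 6 months in every heart. It rose against ST hearts of 6 months, with 0.31 ± 0.075, adjusted p = 0.00605, and fell against WT hearts of 6 months, with -0.40 ± 0.070, adjusted p = 0.000354. Col18a1 had 21.6, 11.7 and 14.1 CPM and fell against ST hearts of 6 months, with -0.60 ± 0.20, adjusted p = 0.0279, a call lost without ST replicate 1 (adjusted p = 0.0786) or 3 (0.0860) of 6 months and without ST replicate 2 (0.145) or 3 (0.118) of 8 months. It did not pass the test against WT hearts of 6 months (-0.38 ± 0.16, adjusted p = 0.0790). Col6a3 had 83.7, 89.5 and 89.4 CPM in ST hearts of 8 months, below all hearts of 6 months. It fell against ST hearts, with -0.43 ± 0.080, adjusted p = 0.000980, and against WT hearts, with -0.33 ± 0.068, adjusted p = 0.00143. Col6a1 and Col6a2 did not pass the test in either comparison, at 153, 165 and 176 CPM and 128, 152 and 164 CPM in ST hearts of 8 months. The count ratio of Col6a3 to Col6a1 was 0.533 ± 0.021 in ST hearts of 8 months, 0.774 ± 0.066 in ST hearts of 6 months and 0.610 ± 0.034 in WT hearts of 6 months (SD, n = 3 each). Col6a6 had 13.3, 13.5 and 9.61 CPM in ST hearts of 8 months and fell against WT hearts of 6 months, with -0.67 ± 0.15, adjusted p = 0.00324, but did not pass the test against ST hearts of 6 months (0.27 ± 0.25, adjusted p = 0.426).

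Col7a1 and Col28a1 were low-level genes with calls at 8 months. Col7a1, the anchoring fibril chain best known from skin, had 1.90, 1.504 and 2.36 CPM in ST hearts of 8 months, 4.32, 4.54 and 4.31 CPM in ST hearts of 6 months and 3.55, 2.83 and 4.67 CPM in WT hearts of 6 months. It fell against ST hearts of 6 months, with -1.19 ± 0.26, adjusted p = 0.00347, and against WT hearts of 6 months, with -0.91 ± 0.31, adjusted p = 0.0304. The fall against WT hearts was lost with DESeq2 (adjusted p = 0.117) and without ST replicate 1 (0.0768) or 2 (0.126) of 8 months or WT replicate 3 (0.138) of 6 months. Col28a1, a beaded filament chain described around Schwann cells in peripheral nerve, had 3.595, 1.88 and 2.00 CPM in ST hearts of 8 months, 1.08, 0.983 and 0.523 CPM in ST hearts of 6 months and 0.683, 1.55 and 1.20 CPM in WT hearts of 6 months. It rose against ST hearts of 6 months, with 1.49 ± 0.41, adjusted p = 0.0113, and against WT hearts of 6 months, with 1.09 ± 0.39, adjusted p = 0.0423. The rise against ST hearts was lost without ST replicate 3 of 6 months (adjusted p = 0.0510) or ST replicate 1 of 8 months (0.0694). The rise against WT hearts was lost with DESeq2 (adjusted p = 0.122) and with scaling by library total (0.0525). It was also lost in the fit over all groups (adjusted p = 0.0511) and with a replicate block (0.0607). It was lost too without any single ST library of 8 months (0.228, 0.0503 and 0.0625 for replicates 1, 2 and 3) and without WT replicate 1 (0.139) or 3 (0.0817). Schwann cell markers summed to 131 to 137 CPM in ST hearts of 8 months, 93.1 to 129.9 CPM in ST hearts of 6 months and 143 to 165 CPM in WT hearts of 6 months, and their part in the level of Col28a1 was not tested.

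Against WT hearts of 6 months, ST hearts of 8 months had 4 collagen chain genes that rose and 8 that fell, of 29 tested, beside 33.9% of all 13095 genes tested called. Their median log2 fold change was -0.21, against -0.0081 over all genes tested. Fibrillar chains fell in 3 of 9 tested (Col1a2, Col5a1 and Col5a2) and rose in 0, with a median of -0.21. The 5 collagen genes whose values were higher than in all WT hearts of 6 months, and the 12 whose values were lower, compare with 46.7% of all genes tested without overlap (23.5% higher and 23.2% lower). With no WT heart of 8 months, a difference between ST and WT hearts cannot be told apart from one between months, tables or any separate runs.

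**Figure D4:**
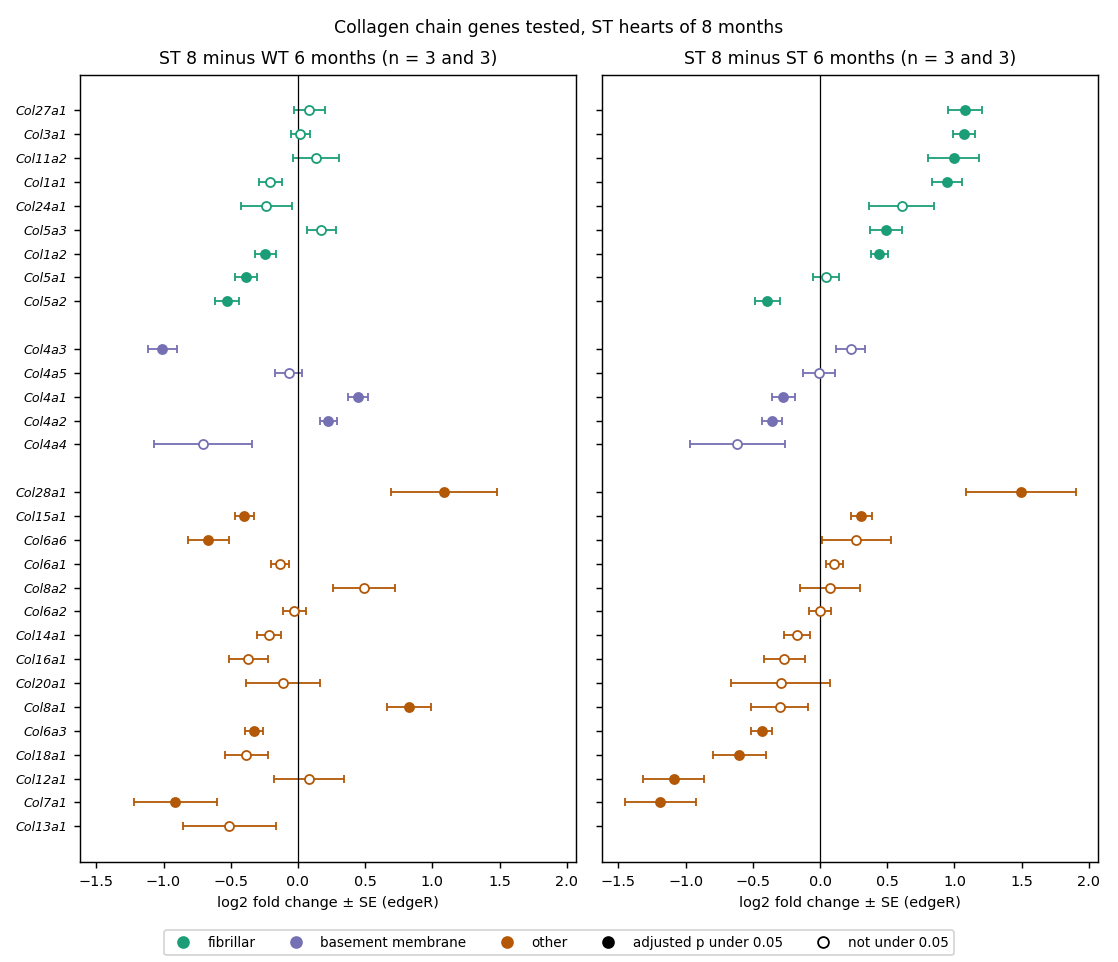
Log2 fold change of ST hearts of 8 months over WT hearts of 6 months (left) and over ST hearts of 6 months (right), 3 hearts a group, for each collagen chain gene tested; points are fold changes, bars ± SE, and filled points passed an adjusted p of 0.05. Fibrillar genes lie near or left of 0 against WT and mostly right of 0 against ST hearts of 6 months.

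Fibroblast markers other than collagens summed to 2598 to 3028 CPM in ST hearts of 8 months, against 3326 to 3806 CPM in ST hearts of 6 months, with 1 of 12 risen and 7 fallen and none at 0, beside 39.5% of all genes tested called. Among those that fell was Tcf21 (log2 fold change -1.46, adjusted p = 1.07e-05). Macrophage and monocyte markers summed to 125 to 135 CPM in ST hearts of 8 months, against 165 to 222 CPM in ST hearts of 6 months, with 6 of 10 fallen. Endothelial markers summed to 1655 to 1780.0 CPM in ST hearts of 8 months, with 5 of 12 risen and 3 fallen against ST hearts of 6 months and 8 of 12 risen against WT hearts of 6 months. The part of these markers in the collagen results was not tested.

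The genes that fold and modify collagen chains in the endoplasmic reticulum were called at 6 months about as often as all genes. Of 26 tested, 7 rose and 3 fell in ST hearts of 6 months against WT, which is 38.5%, beside 40.0% of all genes tested, and their median log2 fold change was -0.018. P4ha1, the catalytic subunit of the prolyl hydroxylase that stabilises the triple helix, averaged 116 ± 2.28 CPM in ST and 42.5 ± 3.27 CPM in WT hearts of 6 months (SD, n = 3 each). P4ha1 rose, with log2 fold change 1.45, adjusted p = 4.23e-08. P4ha2, a sister subunit, rose (log2 fold change 0.64, adjusted p = 0.000257), as did Serpinh1, the collagen chaperone HSP47 (log2 fold change 0.60, adjusted p = 5.88e-05), and Hspa5, the general chaperone BiP (log2 fold change 0.63, adjusted p = 0.000117). Of the 26, 16 did not pass the test. Among ST hearts, 1 of 26 rose and 10 fell at 8 months against 6 months, beside 39.5% of all genes tested called and 20.7% lower. P4ha1 averaged 42.6 ± 2.89 CPM in ST hearts of 8 months and fell (log2 fold change -1.45, adjusted p = 1.41e-08), as did P4ha2 (log2 fold change -0.91, adjusted p = 3.68e-06), Hspa5 (log2 fold change -0.48, adjusted p = 2.99e-05) and Serpinh1 (log2 fold change -0.44, adjusted p = 5.97e-05). At 2 months, P4ha1 (log2 fold change 0.52, adjusted p = 0.0373) and Plod2, a lysyl hydroxylase for cross-links (log2 fold change 0.79, adjusted p = 0.0149), rose in ST hearts, and 0 of 26 fell with edgeR, beside 4.80% of all genes tested called. The call of P4ha1 was lost with DESeq2 (adjusted p = 0.0750) and without ST replicate 1 (0.0668), WT replicate 1 (0.271) or WT replicate 2 (0.340). That of Plod2 was lost without ST replicate 1 (adjusted p = 0.0535), WT replicate 1 (0.0781) or WT replicate 2 (0.0630).

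**Figure D5:**
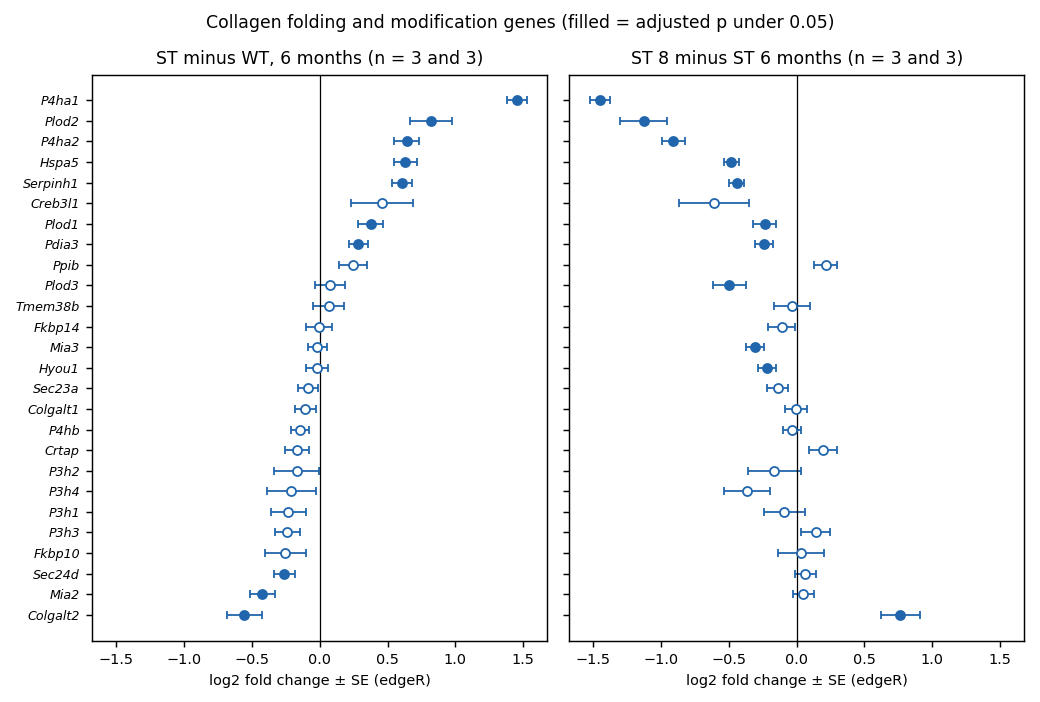
Log2 fold change ± SE of 26 collagen folding and modification genes in ST over WT hearts of 6 months (left) and in ST hearts of 8 over 6 months (right), 3 hearts a group; filled points passed an adjusted p of 0.05. P4ha1, Plod2, P4ha2, Hspa5 and Serpinh1 lie right of 0 on the left panel and left of 0 on the right panel.

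Of 13 genes of procollagen processing and cross-linking tested at 6 months, 2 rose and 4 fell in ST hearts, which is 46.2%, beside 40.0% of all genes tested. Tgm2, a transglutaminase that cross-links matrix proteins, rose (log2 fold change 0.84, adjusted p = 4.22e-05). Sparc, which binds collagen as it is secreted, fell (log2 fold change -0.39, adjusted p = 0.00105), as did Tll1, a protease that trims the C-terminal end of procollagen (log2 fold change -1.89, adjusted p = 0.00111), and Adamts3, which trims the N-terminal end (log2 fold change -1.35, adjusted p = 0.00298). In ST hearts of 8 against 6 months 3 of 11 rose and 1 fell, beside 39.5% of all genes tested called. Sparc (log2 fold change 0.45, adjusted p = 0.000106) and Adamts3 (log2 fold change 0.97, adjusted p = 0.0308) rose and Tgm2 fell (log2 fold change -0.34, adjusted p = 0.0175). The call of Adamts3 was lost with DESeq2 (adjusted p = 0.184), with no filter (0.0614) and without any single library but ST replicate 1 of 8 months (0.0631 to 0.137). That of Tgm2 was lost without ST replicate 1 (adjusted p = 0.0543) or 3 (0.0714) of 6 months or ST replicate 1 (0.0684) or 2 (0.0964) of 8 months. At 2 months 0 of 13 tested passed the test with edgeR, and 2 had an unadjusted p under 0.05.

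Among 16 partners of type IV collagen in basement membranes tested at 6 months, 3 rose and 2 fell, which is 31.2%, beside 40.0% of all genes tested. Lama5, a laminin chain, averaged 352 ± 32.1 CPM in ST and 83.7 ± 8.93 CPM in WT hearts of 6 months (SD, n = 3 each). It rose (log2 fold change 2.08, adjusted p = 1.31e-08), in the same libraries as Col4a1 and Col4a2, and Lamc1, a common laminin chain, rose too (log2 fold change 0.30, adjusted p = 0.00270). In ST hearts of 8 against 6 months 2 of 15 rose and 6 fell, beside 39.5% of all genes tested called. Lama5 (log2 fold change -1.74, adjusted p = 1.55e-08) and Lamc1 (log2 fold change -0.52, adjusted p = 2.13e-05) fell, and so did Nid1, the nidogen that links laminin to type IV collagen (log2 fold change -0.46, adjusted p = 9.09e-05). At 2 months Lama5 rose in ST hearts (log2 fold change 0.88, adjusted p = 0.000541), where Col4a1 and Col4a2 did not pass the test.

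Of 8 collagen receptors tested at 6 months, 3 rose and 1 fell, beside 40.0% of all genes tested called. Itga2, an integrin chain that binds collagen, rose (log2 fold change 1.93, adjusted p = 0.000197), as did its partner Itgb1 (log2 fold change 0.44, adjusted p = 0.000364) and Mrc1, a macrophage receptor that takes up collagen (log2 fold change 0.45, adjusted p = 0.0267), while Itga11, an integrin chain of fibroblasts, fell (log2 fold change -0.98, adjusted p = 0.0316). The call of Itga11 was lost with DESeq2 (adjusted p = 0.0685) and without ST replicate 1 (0.112), ST replicate 3 (0.112) or WT replicate 2 (0.143). That of Mrc1 was lost with scaling by library total (adjusted p = 0.0746) and without ST replicate 1 (0.0726), ST replicate 2 (0.0668), WT replicate 1 (0.0921) or WT replicate 2 (0.0811). In ST hearts of 8 against 6 months 5 of 7 fell and 0 rose, beside 39.5% of all genes tested called and 20.7% lower, among them Mrc1 (log2 fold change -1.49, adjusted p = 2.34e-06) and the collagen-binding kinase Ddr1 (log2 fold change -0.53, adjusted p = 0.00177). Of 15 matrix proteins that bind collagen and were tested at 6 months, 4 rose and 3 fell, beside the same 40.0%. Podn, a small leucine-rich protein that binds type I collagen (log2 fold change -0.63, adjusted p = 7.64e-05), and Emilin1, an elastic fibre protein (log2 fold change -0.89, adjusted p = 0.000138), fell. Emilin1 rose in ST hearts of 8 against 6 months (log2 fold change 0.84, adjusted p = 8.41e-05) and was lower in ST than in WT hearts at 2 months too (log2 fold change -0.76, adjusted p = 0.00779), when Fn1, encoding fibronectin, rose (log2 fold change 0.71, adjusted p = 0.0183). At 2 months the call of Emilin1 was lost without WT replicate 1 (adjusted p = 0.265) and that of Fn1 without WT replicate 2 (0.218).

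The remaining collagen chain genes had low counts or none. Col2a1, Col6a4, Col6a5, Col9a1, Col9a2, Col9a3, Col10a1, Col11a1, Col17a1, Col22a1, Col23a1 and Col26a1 passed the filter in none of the comparisons. Col26a1 had 0 counts in all 13 libraries, where 3 counts would be 0.266 CPM in the deepest and 0.639 CPM in the shallowest library. Col6a5 had at most 1 count in any library. Col19a1 and Col25a1 were tested at 2 months, with log2 fold changes of 0.86 ± 0.41 and -0.034 ± 0.53, and in the interaction, with -0.47 ± 0.67, adjusted p = 0.653 and 1.36 ± 0.87, adjusted p = 0.281, and passed neither test. In the libraries of 2 months Col19a1 had 11 to 45 counts and Col17a1 had 5 to 7 counts, above the floor of 3 counts. Where counts were at or below that floor, no statement on the presence or absence of a chain in the tissue can be made at this depth.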

How the data were processed

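Bulk RNA of heart tissue from rats was measured in 13 samples. The values are expected counts per gene as deposited, unscaled between samples, in 3 tables of 1 month each. The aligner and counter were not given in the sources used here. Mouse builds GRCm38 and mm10 are named by the submitters' processing notes, while the tables list rat names, so no position was taken from the files. All 13 sample columns were used. Groups were taken from the sample titles, which call the samples biological replicates without naming the rats, so p-values measure the spread between these samples.

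The expected counts were first rounded to integers. A comparison was fitted on its libraries alone, over the names that its tables share. The fit used filterByExpr, TMM factors and edgeR 4.0.16 in R 4.3.3 with its quasi-likelihood F test (earlier method, two-sided), with Benjamini-Hochberg adjustment over all genes tested and a threshold of 0.05. A standard error is the size of the log2 fold change over the root of F. The interaction used the libraries of 2 and 6 months over shared names. The members, lists and rule for named genes were chosen with earlier results of these data known. That rule names the 10 smallest p among the members called, a fixed set of main chains, and up to 4 genes called in each pathway list; a few further members below it are named to account for all 44.

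Alternatives were DESeq2 size factors, scaling by library total, no filter, a filter of 5 CPM, DESeq2 1.42.0, limma-voom of limma 3.58.1, a replicate block, the pooled fit of every group, a minimum fold of 1.5, and leaving out each library. The tests were checked on simulated counts with known changes, drawn with a fixed dispersion that was not fitted to these data. That check therefore gives no error rate for these data. Library totals ran from 4.70 M to 11.3 M counts, and the floor of 3 counts covers counting error only. Alternatives for normalized values did not apply.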

Additional observations from a re-analysis of the deposited data

Results flagged for a closer look

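For 14 collagen chain genes the log2 fold change of ST over WT hearts at 6 months differed from that at 2 months by a test of the difference itself, with edgeR's adjusted p under 0.05. The 9 with a lower fold change at 6 months were Col4a3 (-1.24), Col11a2 (-1.10), Col3a1 (-1.08), Col1a1 (-1.02), Col27a1 (-0.94), Col14a1 (-0.75), Col1a2 (-0.72), Col15a1 (-0.63) and Col5a2 (-0.62). The 5 with a higher fold change at 6 months were Col8a1 (1.20), Col4a1 (0.99), Col4a2 (0.84), Col18a1 (0.69) and Col5a3 (0.64). For Col4a1 and Col4a2 the fold changes had opposite signs, at 0.71 and 0.57 at 6 months and -0.30 and -0.28 at 2 months, where those of 2 months were not past the threshold. No group held 4 or more samples, so no sample could be tested for lying far from the others.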

How the results depend on the processing

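The counts of collagen chain genes called stayed within 1.5 times the main count under most settings. At 2 months 3 genes were called, against 5 with no filter and 1 to 7 with a library left out, where the lone sample of an arm is assumed to vary like the others. Among ST hearts of 8 against 6 months 8 of 15 calls had a fold change of at least 1.5, and in ST 8 against WT 6 months 5 of 12. Without mitochondrial and haemoglobin genes in the total, the collagen share at 2 months was 0.377% in ST and 0.407% in WT hearts. The deviations of same-numbered samples from their group means correlated with r = 0.071 at 2 months, and 0.030, 0.111 and 0.0039 at 6 months. For ST 8 months r was 0.055, 0.178 and 0.038 with ST 6 months, and 0.040, 0.035 and 0.026 with WT 6 months. With 2 or 3 samples a group, these values cannot decide whether the numbers pair the samples. With a replicate block 3 genes were called at 2 months, 16 at 6 months and 16 in ST 8 against ST 6 months. In ST 8 against WT 6 months the block gave 13, where Col14a1 and Col1a1 were added and Col28a1 was no longer called (adjusted p = 0.0607). The genes that follow passed the test in no case here under the main settings, and the cause of a turned sign was not tested. At 2 months Col3a1 turned with scaling by library total (-0.011), the filter of 5 CPM (-0.0041) and DESeq2 (-3.8e-05). At 6 months Col6a3 turned with scaling by library total (-0.023), as did Col3a1 in ST 8 against WT 6 months (-0.047). In ST 8 against ST 6 months, Col4a5 turned with scaling by library total (0.056) and the filter (0.0039), and Col6a2 turned with scaling by library total (0.062), the filter (0.010) and the fit over all groups (0.0043). With 1 library left out, signs turned at 2 months for Col15a1 (-0.29 to 0.10), Col1a1 (-0.31 to 0.011), Col1a2 (-0.082 to 0.11), Col3a1 (-0.088 to 0.086), Col6a2 (-0.10 to 0.0042) and Col8a1 (-0.44 to 0.14). They turned at 6 months for Col4a4 (-0.20 to 0.050), Col4a5 (-0.13 to 0.033) and Col6a2 (-0.063 to 0.0024). In ST 8 against ST 6 months they turned for Col4a5 (-0.12 to 0.086), Col5a1 (-0.051 to 0.099) and Col6a2 (-0.080 to 0.088), and in ST 8 against WT 6 months for Col3a1 (-0.025 to 0.089), Col4a5 (-0.15 to 0.025) and Col6a2 (-0.11 to 0.067).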

Other observations

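Some receptors and partners of collagen differed between ST hearts of 8 months and WT hearts of 6 months. In this comparison month, table and any difference in run cannot be told apart. Of all genes tested, 33.9% were called (17.8% higher and 16.1% lower). Of 8 collagen receptors tested, 5 fell and 0 rose, among them Ddr1 (log2 fold change -0.75, adjusted p = 2.49e-05), Mrc1 (log2 fold change -1.02, adjusted p = 0.000125), Mrc2, an endocytic receptor of collagen fragments (log2 fold change -0.53, adjusted p = 0.00269), and Itga11 (log2 fold change -1.47, adjusted p = 0.00327). Of 15 basement membrane partners tested, 3 rose and 4 fell. Pxdn, the peroxidase that cross-links type IV collagen, rose (log2 fold change 0.58, adjusted p = 1.12e-05) beside Col4a1 and Col4a2, while Lama2, the laminin chain of muscle basement membranes, fell (log2 fold change -0.58, adjusted p = 2.55e-05), as did Nid1 (log2 fold change -0.41, adjusted p = 0.000136). Of 15 collagen-binding matrix proteins tested, 2 rose and 4 fell, with Bgn, a small proteoglycan on fibrils, risen (log2 fold change 0.39, adjusted p = 0.000645) and Podn fallen (log2 fold change -0.83, adjusted p = 2.76e-05). Of 26 folding and modification genes tested, 1 rose and 5 fell, which is 23.1% called and below the share over all genes, and the riser was Ppib, a prolyl isomerase of the collagen helix (log2 fold change 0.48, adjusted p = 0.00233).

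Some count ratios between chains of 1 collagen type were far apart in the tables of 2 months and later. Col4a3 had 0.514 ± 0.035 counts for each count of Col4a4 in ST hearts and 0.480 ± 0.047 in WT hearts of 2 months (SD, n = 2 each), against 16.7 ± 5.2 in ST hearts of 8 months, 8.89 ± 0.90 in ST hearts of 6 months and 19.5 ± 1.4 in WT hearts of 6 months (SD, n = 3 each). The tables of 2 months and later list different names, and whether the gap comes from them was not tested.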
